A study of Mus musculus with 12 samples.

Results

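The genes described here are the nuclear genes of the mitochondrial respiratory chain and ATP synthase, together with cytochrome c. They were chosen by name: gene names that start with Nduf, Uqcr or Atp5 or with Cox and a digit of 4 to 8, and Sdha, Sdhb, Sdhc, Sdhd, Cyc1 and Cycs, without Ndufa4 and without names of pseudogenes. This gave 93 of the 38339 genes in the table. They are 36 subunit genes of complex I, 7 assembly factors of complex I, 4 genes of complex II, 9 of complex III, Cycs, 19 of complex IV, 15 of complex V, and the pair Atp5s and Atp5sl, which carry the name of complex V but are not counted among its structural subunits here. The 19 genes of complex IV include 7 isoforms known from particular tissues and the paralogs Cox7a2l and Ndufa4l2.

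RNA came from 12 marrow samples of mice that carried 1 of 6 primary T-ALLs (T-lineage acute lymphoblastic leukemia, which arises from T-cell precursors), and was sequenced as total RNA. For each transplanted leukemia, 1 moribund recipient received dexamethasone (DEX, a synthetic glucocorticoid) and another received vehicle (VEH), with bone marrow collected 4 hours later. The groups are thus 6 DEX libraries and 6 VEH libraries in 6 pairs, called leukemias 1 to 6. All leukemias came from a C57BL/6 x 129Sv/Jae F1 background. The marrow was depleted of red cells by lysis and was not sorted, so host marrow cells remained in it, and a single mouse stands for each leukemia and treatment.

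The respiratory chain passes electrons from NADH (complex I) and succinate (complex II) through ubiquinone to complex III, cytochrome c and complex IV, where oxygen is reduced. Complexes I, III and IV pump protons across the inner mitochondrial membrane, and complex V uses the gradient to make ATP. Complexes I, III, IV and V also hold subunits encoded by mitochondrial DNA, which the chosen genes do not include. Glucocorticoids kill lymphoid cells through the mitochondrial route of apoptosis, in which cytochrome c leaves the mitochondrion and activates caspases.

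The deposited values are FPKM (fragment counts divided by gene length and by the mapped fragments of a library), and the table held no counts. The libraries had 11778 to 12970 genes at 1 FPKM or more. An estimate from sparse genes gave 11700000 to 36700000 fragments in 11 libraries, and none could be made for the VEH library of leukemia 2. The T-lineage markers were present: 10 of 10 were tested and their summed level was 1100 to 1630 FPKM in DEX and 1300 to 1950 FPKM in VEH, with Cd5, Cd3g and Lck lower in DEX. In bulk RNA, fewer cells of a type and less RNA per cell cannot be told apart.

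After 4 hours of dexamethasone, no respiratory chain gene was called higher and 2 were called lower: Ndufaf4, an assembly factor of complex I, and Cycs, cytochrome c. The structural subunits of complexes I to V and their paralogs, 83 genes of which 77 were tested, gave 0 calls in either direction. A gene was tested where it reached 1 FPKM in at least 6 of 12 libraries, and called at an adjusted p under 0.05 in a limma fit of log2(FPKM + 1) with leukemia as a block and Benjamini-Hochberg adjustment over all 12358 genes tested. In that fit 4.27% of all tested genes were called higher and 9.28% lower with DEX, 13.6% in all. Of the 93 respiratory chain genes, 87 passed the filter, and the 2 calls among them compare with that background. At an unadjusted p under 0.05, 7 were higher and 6 lower, against 30.2% of all tested genes in either direction.

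Most estimates for the respiratory chain were small, and most intervals were narrow. The 95% interval lay within 0.5 of 0 on the log2 scale for 80 of the 87 genes and within 0.25 for 42 of them. Among all tested genes the same held for 8634 and 2215 of 12358. The 7 genes whose interval reached beyond 0.5 were Ndufb7, Ndufaf4, Ndufaf3, Cox7a1, Cox6a2, Atp5l and Cycs. Level was compared too: of all 4626 tested genes with at least 20 FPKM in VEH, 216 were called higher and 596 lower, while of the 74 respiratory chain genes above that level 0 were higher and 1 lower.

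The median estimate over the 87 genes was 0.05, beside -0.05 over all tested genes, on the log2(FPKM + 1) scale. Its sign depended on scaling. Median-of-ratios scaling gave 0.10 beside -0.01 for all genes, quantile normalization gave -0.02 beside -0.045, and rescaling to TPM gave -0.09 beside -0.16. Scaling to a fixed sum over nuclear protein-coding genes kept the sign, at 0.04 beside -0.06. The share of higher genes among all calls was 31.5% as deposited, 44.7% with median-of-ratios scaling and 12.7% with TPM. The summed FPKM of the 93 genes made up 2.09 ± 0.136% of nuclear protein-coding FPKM in DEX (range 1.89% to 2.26%) and 2.04 ± 0.0952% in VEH (range 1.93% to 2.19%; SD, n = 6 each), and the groups overlapped.

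**Figure D1:**
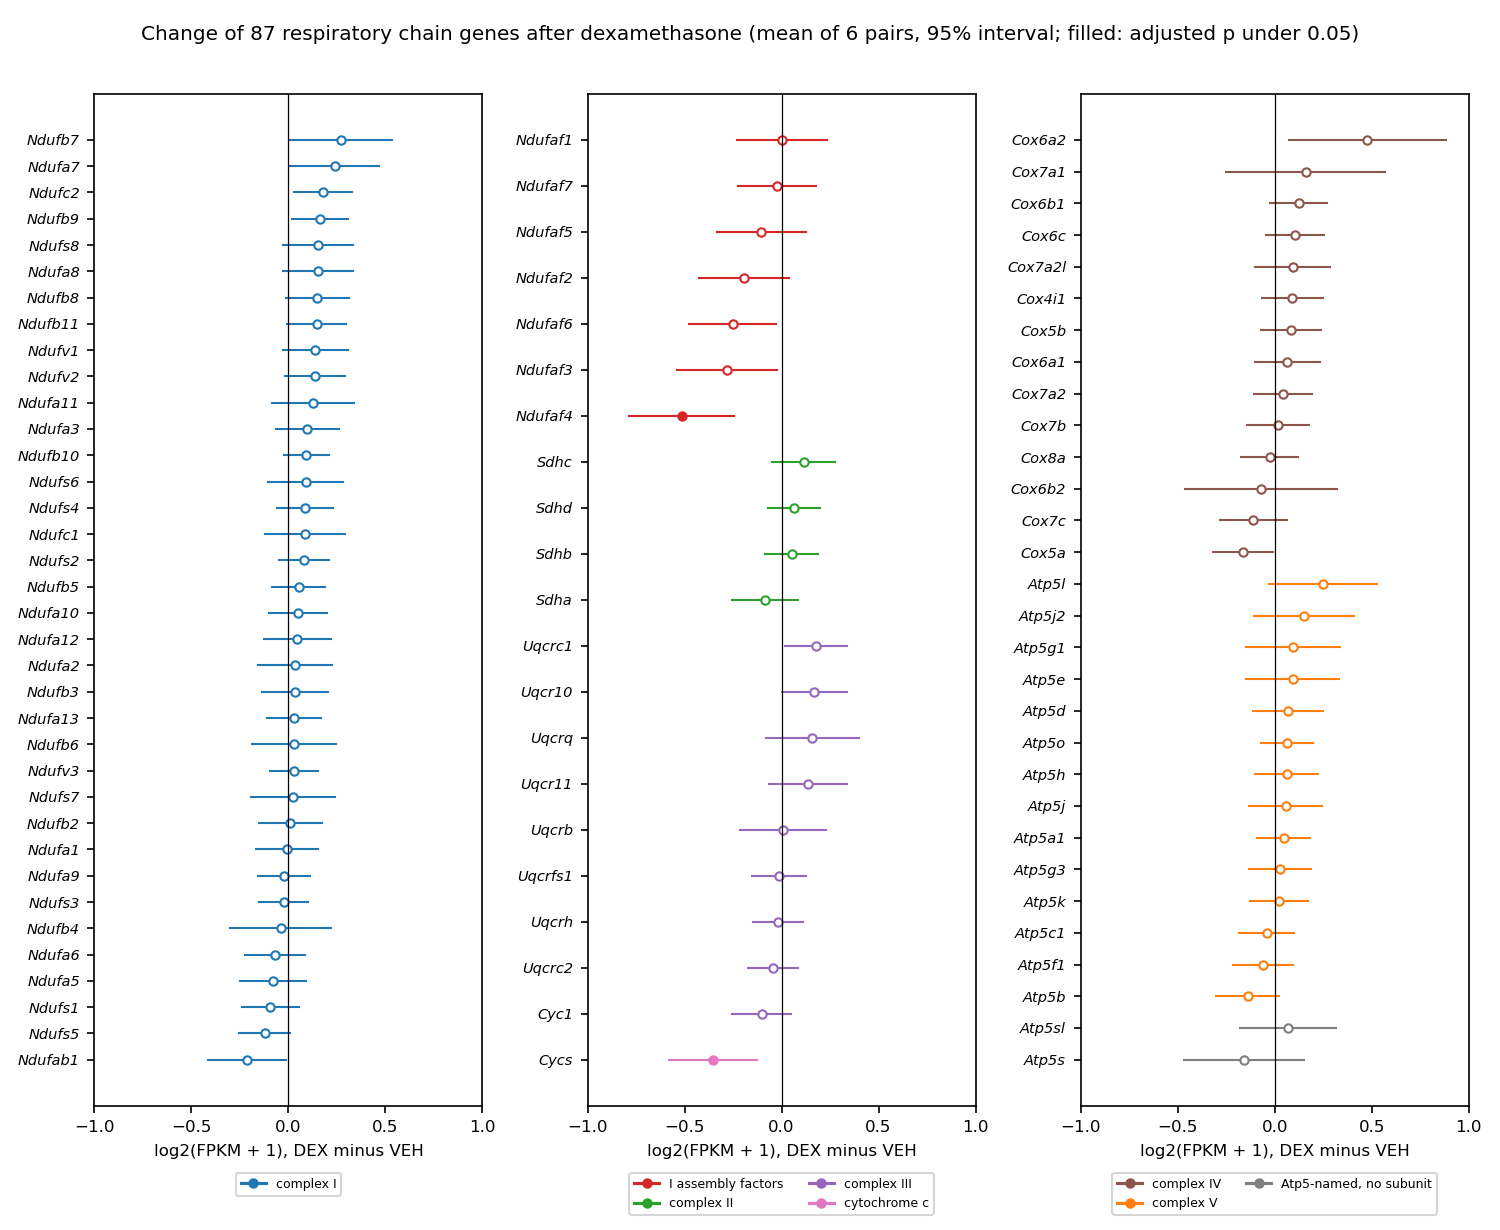
Change of each of the 87 tested respiratory chain genes, as DEX minus VEH on the log2(FPKM + 1) scale, by complex; points are the mean of 6 pairs, lines the 95% interval of the limma fit, and filled points passed an adjusted p of 0.05. Only Ndufaf4 (-0.52) and Cycs (-0.35) are filled, and most other points lie close to 0.

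Among complexes I to V and the assembly factors, levels were lowest for the assembly factors and highest for complex V. The median over genes of the mean FPKM was 8.44 in DEX and 9.22 in VEH for the 7 assembly factors, 59.2 in DEX and 60.7 in VEH for complex I, and 74.7 in DEX and 75.8 in VEH for complex II. It was 108 in DEX and 111 in VEH for complex III, 155 in DEX and 150 in VEH for the 14 tested genes of complex IV, and 188 in DEX and 176 in VEH for the 14 tested genes of complex V. For the pair Atp5s and Atp5sl it was 7.87 in DEX and 7.74 in VEH. FPKM is scaled by gene length. Reads split between near-identical copies or shared by overlapping genes could still shift a level, so the order is a description. Within each of complexes I to V the genes spread more than the medians of neighbouring complexes differ. In VEH, complex IV ran from 1.75 FPKM for Cox6b2 to 334 FPKM for Cox6c.

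**Figure D2:**
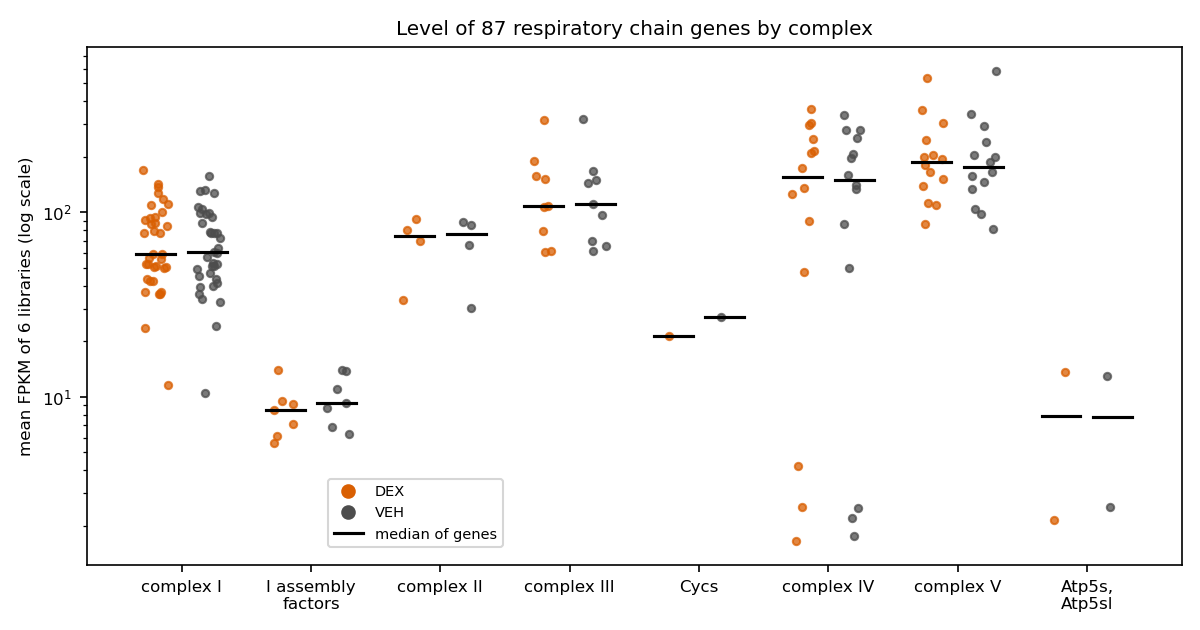
Mean FPKM of 6 libraries on a log axis for each of the 87 tested genes, DEX left and VEH right within each complex; bars are medians over genes. The assembly factors sit near 10 FPKM, most subunits between 20 and 400 FPKM, and the 3 low points of complex IV are Cox6a2, Cox7a1 and Cox6b2.

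Ndufaf4, which binds early assembly intermediates of complex I, was the largest fall. Its FPKM in leukemias 1 to 6 was 10.14, 9.29, 10.01, 8.48, 6.50 and 10.34 in DEX, against 18.97, 10.51, 12.21, 9.91, 12.09 and 18.98 in VEH. Each DEX library was below its own VEH partner, but the groups overlapped, since the lowest VEH library lay below the highest DEX library. The mean was 9.13 ± 1.46 FPKM in DEX and 13.8 ± 4.12 FPKM in VEH (SD, n = 6 each). The log2 difference was -0.52 ± 0.12 (SE), with a limma adjusted p of 0.0251. Leukemias 1, 5 and 6 moved by -0.84, -0.80 and -0.82, and leukemias 2, 3 and 4 by -0.16, -0.26 and -0.20.

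Cycs, the mobile electron carrier between complexes III and IV, fell less. Its FPKM in leukemias 1 to 6 was 23.98, 16.48, 28.06, 21.76, 15.07 and 21.93 in DEX, against 36.12, 22.38, 27.60, 22.91, 24.78 and 29.36 in VEH. It was lower with DEX in 5 of 6 leukemias and the groups overlapped. The mean was 21.2 ± 4.81 FPKM in DEX and 27.2 ± 5.14 FPKM in VEH (SD, n = 6 each), a log2 difference of -0.35 ± 0.10 (SE) with a limma adjusted p of 0.0492. Cyc1, which encodes the heme subunit of complex III that hands electrons to cytochrome c, differed by -0.10 ± 0.07 (95% interval -0.25 to 0.05) and was not called.

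Both calls depended on single leukemias. Without leukemia 1, 5 or 6, Ndufaf4 stood at -0.45, -0.46 and -0.46 with limma adjusted p-values of 0.0788, 0.0838 and 0.0537, and over all 25 alternative settings its adjusted p ran from 0.0106 to 0.234. Cycs lost its call without leukemia 1, 2, 4, 5 or 6, and its limma adjusted p ran from 0.03 to 0.434 over the same settings. The labels of the DEX libraries of leukemias 2, 5 and 6 lack an ending of the letter S and a number that all other labels have. In leukemias 1, 3 and 4 alone, where both labels carry it, Ndufaf4 stood at -0.44 and Cycs at -0.21 (limma adjusted p = 0.126 and 0.386), and in leukemias 2, 5 and 6 alone at -0.59 and -0.50 (limma adjusted p = 0.0911 and 0.0666). Without the replicate block the same differences had limma adjusted p-values of 0.234 for Ndufaf4 and 0.405 for Cycs.

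Changes of granulocyte markers were set beside those of Cycs. All 10 markers on the list were tested and 1, Ltf, was called lower; their summed level was 1480 to 5370 FPKM in DEX (median 2340) and 2280 to 9140 FPKM in VEH (median 3690), and none was at 0 in every library. Their median change in leukemias 1 to 6 was -0.75, -1.43, 0.55, -0.12, -0.49 and -1.34 on the log2 scale, and that of Cycs was -0.57, -0.42, 0.02, -0.07, -0.68 and -0.41. Leukemias 3 and 4, where Cycs changed least, had the highest median change of the granulocyte markers. The other leukemias did not keep this order. Cycs fell most in leukemia 5 (-0.68), where the markers stood at -0.49. The markers fell most in leukemia 2 (-1.43), where Cycs stood at -0.42 and Ndufaf4 at -0.16. Without leukemias 2 and 6, where the markers dropped most, Ndufaf4 stood at -0.53 (limma adjusted p = 0.0356) and Cycs at -0.33 (limma adjusted p = 0.14). The part of host granulocytes in either change was not tested.

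**Figure D3:**
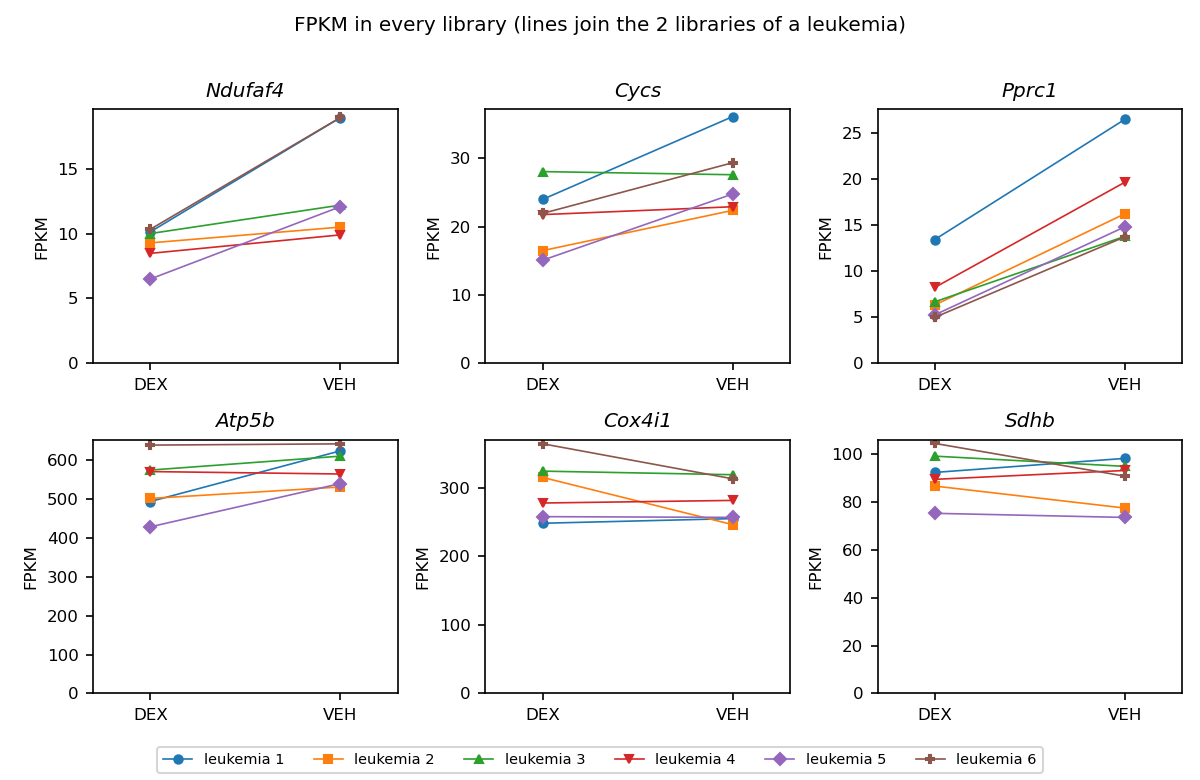
FPKM of 6 genes in every library, DEX left and VEH right; lines join the libraries of a leukemia and each axis starts at 0. Ndufaf4 and Cycs are lower in DEX in 6 and 5 of 6 leukemias, and Pprc1 in all 6 without overlap of the groups. Atp5b, Cox4i1 and Sdhb have mean log2 changes of -0.14, 0.09 and 0.05. Single pairs moved further, by -0.338 for Atp5b in leukemia 1 and 0.355 for Cox4i1 in leukemia 2.

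The sequences upstream of Ndufaf4 and Cycs are shown because these are the genes called. Promoters of many respiratory genes are known to bind nuclear respiratory factor 1 (NRF1). Each line gives the 250 bases before the RefSeq start (GRCm38.p6) on the gene's strand, 5′ to 3′, at chr4:24897833-24898082 on the plus strand for Ndufaf4 and chr6:50566570-50566819 on the minus strand for Cycs. Capitals mark every match to the NRF1 core GCGCATGCG on either strand.
Ndufaf4: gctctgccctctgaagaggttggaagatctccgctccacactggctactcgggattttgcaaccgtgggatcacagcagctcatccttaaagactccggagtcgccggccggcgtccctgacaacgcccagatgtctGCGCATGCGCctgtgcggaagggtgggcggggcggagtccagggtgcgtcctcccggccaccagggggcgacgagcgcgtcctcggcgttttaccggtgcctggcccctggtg
Cycs: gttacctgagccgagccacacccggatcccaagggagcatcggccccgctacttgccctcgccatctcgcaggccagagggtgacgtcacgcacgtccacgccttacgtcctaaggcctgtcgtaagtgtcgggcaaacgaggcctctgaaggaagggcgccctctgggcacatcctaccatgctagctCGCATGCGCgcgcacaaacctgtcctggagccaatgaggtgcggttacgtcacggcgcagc
In Ndufaf4 the capitals begin 113 bases before the start and hold 2 overlapping matches, 1 on each strand; in Cycs they begin 61 bases before the start and hold 1 match on the reverse strand.

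The NRF1 core was found in 11 of the 76 respiratory chain genes with an entry in the RefSeq promoter table (14.5%), and in 527 of all 27025 entries (1.95%), in windows of 250 bases before to 50 after the start. The 11 are Atp5g2, Atp5k, Atp5l, Cox6a1, Cycs, Ndufa11, Ndufa8, Ndufaf4, Ndufaf5, Uqcr11 and Uqcrc1. Of these, 10 were tested and 2 were called, Ndufaf4 and Cycs, where 13.6% of all tested genes were called. Of the 8 others, 7 had estimates above 0, with Atp5l at 0.25, Uqcrc1 at 0.18 and Ndufa8 at 0.15. The estimate of 1 lay below 0, Ndufaf5 at -0.10 ± 0.10 (SE). The ETS core CCGGAAG was in 17 genes (22.4%, against 9.93% of all entries) and the YY1 core AAGATGGCG in 8 (10.5%, against 1.64%). The E-box CACGTG, the site known for MYC, was in 7 (9.21%, against 8.09%). Both strands were searched, and a match of letters is not a bound site. The 27025 entries were not limited to tested genes, so the shares are not matched for expression.

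The other 6 assembly factors of complex I were not called. Their estimates were -0.28 ± 0.11 for Ndufaf3, -0.25 ± 0.10 for Ndufaf6, -0.19 ± 0.10 for Ndufaf2, -0.10 ± 0.10 for Ndufaf5, -0.02 ± 0.09 for Ndufaf7 and 0.00 ± 0.10 for Ndufaf1 (SE). Ndufaf3, a partner of Ndufaf4 in early assembly, had 4.11, 7.96 and 8.55 FPKM (lowest, median, highest) in DEX, against 7.16, 8.33 and 11.30 FPKM in VEH, and the groups overlapped. Ndufaf6 was lower in 5 of 6 leukemias and had a limma adjusted p of 0.128; it was called with TPM (-0.34, limma adjusted p = 0.0361), with array weights (-0.34, 0.023) and without leukemias 2 and 6 (-0.37, 0.0305). The median of the 7 assembly factors was -0.19, and it stayed below 0 under each of the 4 other scalings.

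Complex I, the NADH dehydrogenase, had 36 of 36 genes tested and none called, with estimates from -0.21 to 0.27 and a median of 0.05 (27 above 0 and 9 below as deposited, 11 above and 25 below with TPM). The 7 core subunits, which hold the flavin and most iron-sulfur clusters, had a median of 0.08, and the 29 accessory subunits, which surround the core, a median of 0.05. Ndufb7, an accessory subunit of the membrane arm, had the highest estimate. Its FPKM was 60.74, 73.9 and 94.08 in DEX (lowest, median, highest), against 53.30, 59.7 and 96.50 in VEH, a difference of 0.27 ± 0.12 (SE; limma adjusted p = 0.163). It was called in 2 alternatives: without leukemia 3 it stood at 0.38 (limma adjusted p = 0.0391), and in leukemias 2, 5 and 6 alone at 0.54 (limma adjusted p = 0.0439).

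Ndufa7, another accessory subunit, had 83.07, 126 and 146.97 FPKM in DEX, against 73.19, 98.2 and 138.18 FPKM in VEH (0.24 ± 0.10, limma adjusted p = 0.152). At the other end stood Ndufab1, the mitochondrial acyl carrier protein that is also a subunit of complex I. It had 66.49, 93.5 and 106.01 FPKM in DEX, against 98.25, 99.3 and 128.43 FPKM in VEH (-0.21 ± 0.09, limma adjusted p = 0.145), and was lower in 5 of 6 leukemias. Ndufs5 was lower in 6 of 6 leukemias by a small amount (-0.12 ± 0.06, limma adjusted p = 0.192), while Ndufb10 and Ndufc2 were higher in 6 of 6 (0.09 and 0.18). Such shared directions also occurred in 13.9% of all tested genes for lower and 5.97% for higher.

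Complex II, succinate dehydrogenase, is wholly nuclear-encoded and also serves the TCA cycle. Its 4 genes were tested and none was called. Sdha, the flavoprotein, differed by -0.09 ± 0.07, with 58.12, 83.5 and 94.77 FPKM in DEX (lowest, median, highest), against 62.17, 86.8 and 108.41 FPKM in VEH. Sdhb, the iron-sulfur subunit, differed by 0.05 ± 0.06, with 75.32, 91.0 and 104.56 FPKM in DEX, against 73.60, 92.0 and 98.30 FPKM in VEH. The membrane anchors Sdhc and Sdhd differed by 0.11 ± 0.07 and 0.06 ± 0.06. The 95% intervals of all 4 genes lay between -0.26 and 0.28, and the groups overlapped for each.

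Complex III, the cytochrome bc1 complex, had 9 genes tested and none called, with a median of 0.01 (-0.03 with quantile normalization and -0.13 with TPM). Uqcrc1, a core protein, was higher in 6 of 6 leukemias, with 65.28, 78.2 and 96.10 FPKM in DEX, against 60.67, 69.9 and 83.42 FPKM in VEH (0.18 ± 0.07, limma adjusted p = 0.124). Its partner Uqcrc2 differed by -0.04 ± 0.06, in a narrow range of 98.99 to 116.91 FPKM in DEX and 105.07 to 117.27 FPKM in VEH. Uqcr10, a small accessory subunit, had 149.79 to 223.02 FPKM in DEX, against 136.39 to 217.72 FPKM in VEH (0.17 ± 0.07, limma adjusted p = 0.165).

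Complex IV, cytochrome c oxidase, had 14 of its 19 genes tested and none called. Its median was 0.07 as deposited and turned to -0.06 with quantile normalization and with TPM. The broadly expressed subunits stood at high levels: Cox6c averaged 363 FPKM in DEX and 334 FPKM in VEH, Cox6b1 303 FPKM in DEX and 277 FPKM in VEH (0.12 ± 0.06), and Cox4i1 298 FPKM in DEX and 279 FPKM in VEH (0.09 ± 0.07). Cox5a was lower in 6 of 6 leukemias, with 100.72, 125 and 149.22 FPKM in DEX, against 120.96, 132 and 178.61 FPKM in VEH (-0.16 ± 0.07, limma adjusted p = 0.143). Cox7c differed by -0.11 ± 0.08, and Cox8a, Cox7b, Cox7a2 and Cox6a1 by -0.03, 0.02, 0.04 and 0.07.

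The isoforms of complex IV that are known from particular tissues were at low levels or listed at 0. Against 298 FPKM in DEX and 279 FPKM in VEH for Cox4i1, its alternative form Cox4i2, known from lung, had 0.97 FPKM in DEX and 1.60 FPKM in VEH, with most of it in leukemia 3 (4.02 FPKM in DEX and 6.97 FPKM in VEH). The heart and muscle form Cox7a1 averaged 2.53 FPKM in DEX and 2.21 FPKM in VEH, of which leukemia 6 had 8.17 FPKM in DEX and 8.27 FPKM in VEH. The testis form Cox6b2 averaged 1.64 FPKM in DEX and 1.75 FPKM in VEH. The muscle form Cox8b reached at most 0.17 FPKM in DEX and 0.05 FPKM in VEH, and the testis forms Cox7b2 and Cox8c were listed at 0 in all 12 libraries. Atp5g2 and the assembly factor Pet117, which are broadly expressed genes, were listed at 0 as well, so such a 0 does not show that a gene is not expressed. Of the paralogs, Ndufa4l2 stayed at or below 0.24 FPKM in DEX and 0.30 FPKM in VEH, and Cox7a2l, known for supercomplex assembly, averaged 174 FPKM in DEX and 159.9 FPKM in VEH.

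Cox6a2, the heart and muscle form of Cox6a, had the highest estimate of all tested respiratory chain genes. Its FPKM in leukemias 1 to 6 was 5.27, 4.48, 6.54, 1.23, 0.76 and 7.11 in DEX, against 3.12, 4.42, 2.47, 1.48, 0.48 and 2.99 in VEH. It was higher with DEX in 5 of 6 leukemias, mainly in leukemias 1, 3 and 6, and the groups overlapped. The log2 difference was 0.48 ± 0.18 (SE) with a 95% interval of 0.07 to 0.88, and it was not called (limma adjusted p = 0.112). The common form Cox6a1, which averaged 215 FPKM in DEX and 206 FPKM in VEH, differed by 0.07 ± 0.07.

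Complex V, the ATP synthase, had 14 of its 15 genes tested and none called, with a median of 0.06 (-0.07 with quantile normalization and -0.08 with TPM). Atp5b, the catalytic beta subunit, had the highest level of all 87 genes: 428.65, 536 and 638.96 FPKM in DEX (lowest, median, highest), against 531.25, 588 and 642.21 FPKM in VEH. It differed by -0.14 ± 0.07 (limma adjusted p = 0.229) and was called lower only with quantile normalization (-0.47, limma adjusted p = 0.0426). Atp5l, subunit g of the membrane part, had 154.75, 208 and 228.93 FPKM in DEX, against 128.19, 156 and 238.95 FPKM in VEH (0.25 ± 0.12, limma adjusted p = 0.207). Atp5j2, another membrane subunit, differed by 0.15 ± 0.11, and Atp5f1 of the peripheral stalk by -0.06 ± 0.07.

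The c ring, the rotor through which protons pass, is encoded by 3 genes for the same mature protein. Atp5g3 averaged 246 FPKM in DEX and 241 FPKM in VEH (0.03 ± 0.07), and Atp5g1 112 FPKM in DEX and 105 FPKM in VEH (0.09 ± 0.11). Atp5g2 was listed at 0 in all 12 libraries, which in a table without counts can be a failed estimate. Outside the complex, Atp5s differed by -0.16 ± 0.14 and Atp5sl by 0.07 ± 0.11.

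The respiratory chain genes did not move alike in each leukemia. Their median change in leukemias 1 to 6 was -0.11, 0.11, 0.04, 0.17, -0.05 and 0.08, beside -0.03, -0.12, -0.02, -0.01, -0.03 and -0.09 for all tested genes. In leukemia 1 the change was above 0 for 17 of the 87 genes (19.5%, against 44.9% of all tested genes), and in leukemia 4 for 68 (78.2%, against 48.3%). Leukemias 2, 3 and 6 had 57, 58 and 53 genes above 0, and leukemia 5 had 35. With 1 library per arm, a difference in response between leukemias cannot be tested, and these values are a description.

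**Figure D4:**
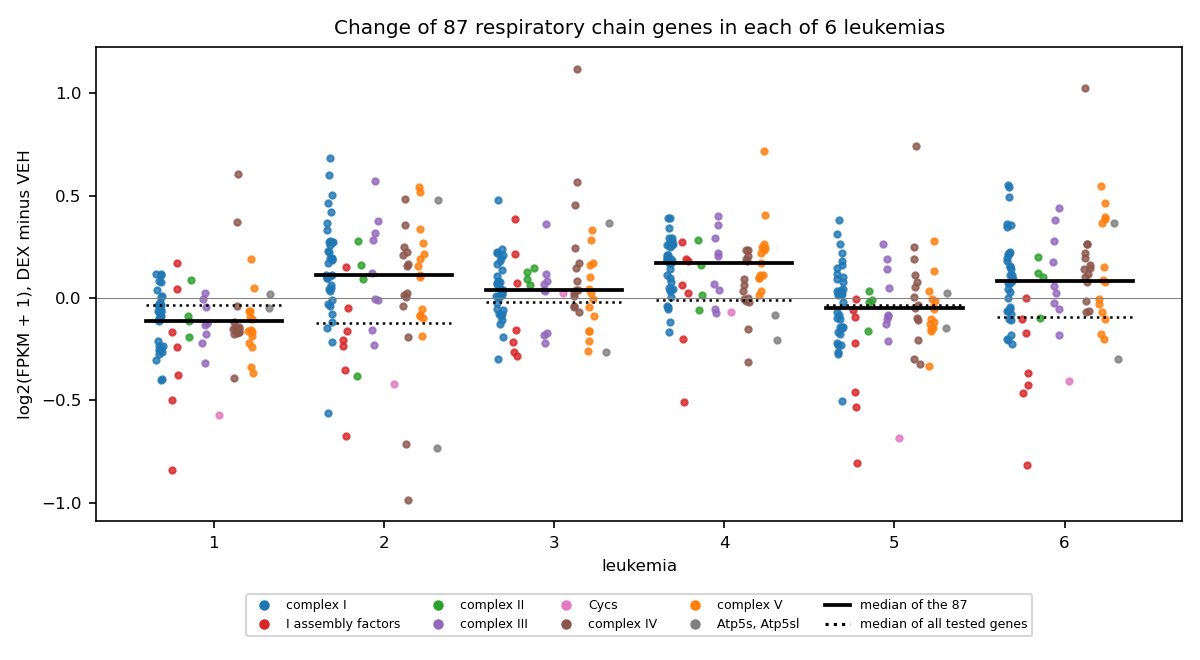
Change of each of the 87 genes in each leukemia, as DEX minus VEH on the log2(FPKM + 1) scale, coloured by complex; solid bars are the median of the 87 and dotted bars that of all tested genes. The solid bar lies below the dotted one in leukemias 1 (-0.11 against -0.03) and 5 (-0.05 against -0.03) and above it in the other 4.

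The changes within each leukemia were also set beside base composition. Across the 87 genes, the correlation of the change with the GC content of the transcript was 0.27, 0.32, -0.29, 0.00, 0.40 and 0.52 in leukemias 1 to 6, and across 10552 protein-coding genes it was -0.05, 0.12, -0.33, -0.05, 0.09 and 0.32. Genes of 1 library share its depth and base composition, so these are descriptions. With the GC trend removed, a setting added after the data were seen, the median over the respiratory chain stayed at 0.05. The same number of genes, 2, was called. The removal kept the median of the fitted trend in each pair. Median GC was 51.0% for the respiratory chain and 50.1% for all tested genes, so the former's median change could move little. Length differed too: the tested respiratory chain genes had a median length of 1801 bases, against 4013 for all tested genes. Among genes of up to 1000 bases the median change was 0.07 for 19 respiratory chain genes and 0.05 for 289 protein-coding genes. It was 0.05 for 32 and -0.01 for 1090 genes of 1000 to 2000 bases, 0.05 for 25 and -0.04 for 3167 genes of 2000 to 4000 bases, and 0.01 for 11 and -0.07 for 6006 longer genes. The respiratory chain median was thus the higher in each of the 4 length classes, by 0.02 to 0.09 (log2), with no test of the difference.

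Differences between leukemias were tested next. By the limma F test of the leukemia terms, 40 of the 87 genes differed at an adjusted p under 0.05, against 51.1% of all tested genes. The number was 22 with TPM, 56 with median-of-ratios scaling, and 35, 39, 26, 24, 21 and 26 without leukemias 1 to 6 in turn. As deposited, complex IV had 11 of 14 genes called, complex II 3 of 4, complex I 19 of 36, complex III 4 of 9, complex V 3 of 14, and the assembly factors 0 of 7. Of the 40 genes, 21 were highest in leukemia 3 and 22 lowest in leukemia 5. The typical gene varied by a factor of 1.44 between the highest and the lowest leukemia mean, and 7 genes by more than 2-fold.

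Ndufs5, an accessory subunit of complex I, had the smallest p between leukemias (limma F test, adjusted p = 4.81e-05). Its FPKM in leukemias 1 to 6 was 57.66, 64.89, 79.72, 71.65, 27.17 and 38.88 in DEX, against 66.86, 66.35, 84.39, 73.95, 32.84 and 41.95 in VEH. Both recipients of leukemia 3 were thus high and both of leukemia 5 low, by a factor of 2.73 between the leukemia means. Ndufb9 (2.05-fold), Cox7a2l (2.20-fold), Atp5e (2.22-fold), Cox6a2 (8.15-fold) and Cox7a1 (19.8-fold) also differed, with limma adjusted p-values of 5.61e-04, 0.00306, 0.00744, 0.00444 and 0.00104. Cox6b2 varied 4.32-fold but did not pass the F test (limma adjusted p = 0.0586). Cox7a2l was lowest in leukemia 1, with 99.07 FPKM in DEX and 111.28 FPKM in VEH, and highest in leukemia 6, with 246.84 FPKM in DEX and 215.35 FPKM in VEH.

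Genes that work beside the respiratory chain were read from 6 lists, whose counts stand beside the 4.27% higher and 9.28% lower of all tested genes with no test of a list. Of 44 tested assembly factors outside the name rule, 0 were higher and 3 lower. Cox17, the copper chaperone of complex IV, had 44.37, 54.5 and 55.56 FPKM in DEX (lowest, median, highest), against 59.67, 66.0 and 76.98 FPKM in VEH, and the groups did not overlap (-0.38 ± 0.07, limma adjusted p = 0.0121). Sco2, another copper chaperone, fell by 0.47 (limma adjusted p = 0.0405), and Lrpprc, which stabilises mitochondrial mRNAs, fell by 0.26 (limma adjusted p = 0.0438). Cox17 kept its call when any 1 leukemia was left out. Sco2 lost its call without leukemia 1, 3, 4, 5 or 6 (limma adjusted p up to 0.103), and Lrpprc without any 1 of the 6 (0.0501 to 0.138). Over all alternative settings, Cox17 lost its call in 5 of 25 (limma adjusted p up to 0.148). Sco2 lost its call in 12 of 24 settings (up to 0.557) and Lrpprc in 17 of 25 (up to 0.318). The 13 subunits encoded by mitochondrial DNA gave 0 calls in either direction at a median of 0.08. At an unadjusted limma p under 0.05, 4 were higher and 0 lower, beside 1198 higher and 2534 lower of all 12358 tested genes. Among the 13 subunits, mt-Nd1 of complex I averaged 1592 FPKM in DEX and 1375 FPKM in VEH (0.22 ± 0.08, limma adjusted p = 0.11).

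In the TCA cycle, which supplies NADH and succinate, 0 of 13 genes were higher and 1 lower. Fh1, fumarase, had 28.88, 38.2 and 52.97 FPKM in DEX, against 39.80, 51.6 and 60.03 FPKM in VEH (-0.38 ± 0.09, limma adjusted p = 0.0266). Among 7 genes of other routes into ubiquinone, 0 were higher and Gpd2, the mitochondrial glycerol-3-phosphate dehydrogenase, fell to 12.5 ± 2.30 FPKM in DEX, against 18.0 ± 2.69 FPKM in VEH (SD, n = 6 each; -0.50 ± 0.12, limma adjusted p = 0.0259). Among 10 carriers and regulators of ATP export and complex IV, Vdac2, an outer membrane channel, fell by 0.37 (limma adjusted p = 0.0171). Ndufa4, a subunit of complex IV, averaged 200.4 FPKM in DEX and 192 FPKM in VEH (0.07 ± 0.06, limma adjusted p = 0.486). The calls of Fh1 and Gpd2 were lost without leukemia 1, 2 or 5 (limma adjusted p up to 0.0805 and 0.075), and that of Vdac2 without leukemia 1, 4 or 5 (up to 0.0566). The paralog of Ndufa4, AA467197, rose by 2.72 ± 0.12, to 138 ± 93.0 FPKM in DEX, against 19.3 ± 11.4 FPKM in VEH (limma adjusted p = 2.2e-05).

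Of 14 tested regulators of respiratory genes, 0 were higher and 4 lower with DEX, where 9.28% of all tested genes were lower; the list was not tested against other genes. Pprc1, a coactivator of the PGC-1 family that works with NRF1, had in leukemias 1 to 6 changes of -0.93, -1.24, -0.95, -1.16, -1.34 and -1.30. Its level was 4.98, 6.50 and 13.44 FPKM in DEX (lowest, median, highest), against 13.74, 15.5 and 26.52 FPKM in VEH, without overlap. The difference was -1.15 ± 0.08 (limma adjusted p = 0.000315). Myc, which is known to drive mitochondrial biogenesis, fell by 1.31 (limma adjusted p = 0.000651), Esrra, the nuclear receptor ERR alpha, by 0.47 (limma adjusted p = 0.0146), and Ppargc1b, the coactivator PGC-1 beta, by 0.53 (limma adjusted p = 0.0319). Pprc1 and Myc kept their calls in all 25 alternative settings. Esrra lost its call in 7 of 25 settings (limma adjusted p up to 0.158), and Ppargc1b in 10 of 24 (up to 0.347). When 1 leukemia was left out, Esrra lost its call only without leukemia 5 (limma adjusted p = 0.0518). Ppargc1b then lost its call without leukemia 1, 2, 3, 4 or 5 (up to 0.0922). Ppargc1a was near 0 (at most 0.03 FPKM in DEX and 0.06 FPKM in VEH). Nrf1 averaged 42.9 FPKM in DEX and 43.2 FPKM in VEH, and Gabpa, an ETS factor, 32.5 FPKM in DEX and 34.8 FPKM in VEH. Tfam, which packages mitochondrial DNA, averaged 45.4 FPKM in DEX and 50.6 FPKM in VEH, and these 3 were not called. Yy1, the factor of the YY1 core, averaged 38.0 FPKM in DEX and 47.3 FPKM in VEH. It differed by -0.31 ± 0.09 and was not called (limma adjusted p = 0.0535), but was called lower in 7 of 25 alternative settings.

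Other marker lists were read for the cells the marrow could hold. Summed erythroid markers, 5 tested of 9 in the table and 0 called, ran from 14.5 to 153 FPKM in DEX and from 9.13 to 1220 FPKM in VEH, highest in the VEH library of leukemia 2. Summed B-lineage markers, 1 tested of 8, ran from 1.14 to 8.40 FPKM in DEX and from 1.23 to 51.6 FPKM in VEH. Summed stromal and endothelial markers, 2 tested of 6, ran from 39.6 to 53.2 FPKM in DEX and from 54.3 to 57.1 FPKM in VEH. Most of that sum was Pecam1, which was called lower, at a mean of 40.3 FPKM in DEX and 50.2 FPKM in VEH. Every other marker of that list had a higher mean in DEX, such as Col1a2 at 4.30 FPKM, against 3.65 FPKM in VEH. The part of these cells in any value above was not tested.

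Subunit genes of the respiratory chain have many processed pseudogenes, so reads of near-identical copies could have been split between loci in the counting. Exons of 20 of the 93 genes overlap those of a tested gene on the opposite strand. The library kit keeps the strand, but whether the counting used it is not given in the sources used here.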

How the data were processed

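Total RNA of marrow was sequenced as 12 libraries with paired reads of 100 bp, per the labels' protocols. The authors deposited FPKM for 38339 genes. Per the submitters' processing notes, the tools were RSEM, edgeR and Bowtie2 (version 2), with no roles stated, and the build was mm10; annotation version and filters are not given in the sources used here. FPKM summed to 1466471 to 2019058 in a library. Names, lengths and biotypes came from GENCODE M21 on GRCm38 (37693 identifiers matched, with all 93 members), and upstream sequences from the RefSeq table on GRCm38.p6 (76 members matched).

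Values were tested as log2(FPKM + 1), which understates changes of low genes. Genes with at least 1 FPKM in at least 6 libraries were fitted with lmFit and a trended eBayes of limma 3.58.1 (R 4.3.3), with leukemia as block, two-sided tests, 5 residual and 3.995 prior degrees of freedom, and Benjamini-Hochberg adjustment over 12358 genes at a threshold of 0.05. The fit was tested on simulated data. Pairs came from the leukemia code in both titles; after removal of group means, libraries of the same leukemia correlated across genes at 0.551 to 0.817, and of different leukemias at up to 0.205. For the change with DEX the replicate is the leukemia (n = 6), and p-values measure the spread of that change between these pairs. The F test sets differences between leukemias against the spread between recipients of the same leukemia, after the treatment term.

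Depth was read from 1108 sparse genes of 400 to 700 bases with an assumed fragment of 150 bases; the VEH library of leukemia 2 had no clear peak (13.8% of genes at it, against at least 49.7% elsewhere). The rule for named genes took members past the threshold, those with the 2 largest rises and falls in each complex, the isoform families, complex II, the 6 widest ranges between leukemias, untested members and up to 4 genes of each other list by p. Ndufaf2, Ndufaf5, Ndufaf6, Ndufb9, Ndufb10, Ndufc2, Cox6c, Yy1 and the genes named for a promoter motif were added after their values were seen. The members and lists were chosen with earlier results of these data known. The labels of 9 libraries end in the letter S and a number, called the label ending here. The 3 others are the DEX libraries of leukemias 2, 5 and 6. Other pseudocounts, filters, scalings, variance models and subsets of leukemias were tried, and 3 of these settings were added after the data were seen.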

Additional observations from a re-analysis of the deposited data

Results flagged for a closer look

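In 5 of 76 groups of 6 libraries (38 named genes, 2 groups each), 1 library stood far from the others; chance alone gives about 1 in 20 such groups. Cox6b2 had 3.88 FPKM in the DEX library of leukemia 3, where the next was 1.55 FPKM. Ndufab1 had 128.43 FPKM in the VEH library of leukemia 1, where the next was 100.92 FPKM. Ndufb7 had 96.5 FPKM in the VEH library of leukemia 3 (next 62.17 FPKM). Ndufaf1 had 18.24 FPKM in the VEH library of leukemia 6 (next 13.61 FPKM). Cox7a1 had 8.27 FPKM in the VEH library of leukemia 6 (next 1.89 FPKM), and its DEX partner was high too, at 8.17 FPKM.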

How the results depend on the processing

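Of 1394 comparisons (56 named genes in up to 25 settings), 1176 kept direction and call, 103 lost a call, 11 gained one, 104 changed the sign of an uncalled value, and no call reversed. Members called higher numbered 0, but 1 (Ndufb7) in leukemias 2, 5 and 6 alone, and 0 to 1 when 1 leukemia was left out. Members called lower numbered 2, against 3 with TPM or array weights. They numbered 1 with a pseudocount of 0.1, median-of-ratios scaling or no variance trend. The number was 0 with no filter, with a term for the label ending, or without leukemias 1 and 5. It was also 0 in leukemias 1, 3 and 4 alone and in leukemias 2, 5 and 6 alone. Leaving out 1 leukemia gave 0 to 2. Without the pairing of libraries as a replicate block, members lower numbered 0, and all genes 35 higher and 46 lower.

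All genes called higher numbered 528, against 181 with no filter, 268 with TPM and 820 with array weights. They numbered 188 in leukemias 2, 5 and 6 alone, 236 with the label-ending term and 59 without leukemias 1 and 5. When 1 leukemia was left out, they numbered 233 to 532. Those called lower numbered 1147, against 370 with no filter and 1844 with TPM. They numbered 523 in leukemias 1, 3 and 4 alone and 257 in leukemias 2, 5 and 6 alone. The number was 282 with the label-ending term, 60 without leukemias 1 and 5, and 425 to 1042 when 1 was left out. With median-of-ratios scaling these counts were 639 and 790. Members that differed between leukemias numbered 40, against 56 with median-of-ratios scaling, 22 with TPM and 21 to 39 when 1 leukemia was left out. The median change of members, 0.046, became -0.092 with TPM, where all genes shifted to -0.16. The causes were not tested. FPKM without counts gives no counting error per value, and 6 pairs limit precision.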
